A study of Mus musculus with 4 samples.

Results

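Chemoattractant receptors of neutrophils that infiltrated the heart after myocardial ischemia and reperfusion (MI/R) were examined. They are a set of 9 receptors for recruitment and ageing, *Cxcr2*, *Cxcr4*, *Ccr1*, *Ccr2*, *Ccrl2*, *Fpr1*, *Fpr2*, *C5ar1* and *Ltb4r1*, picked by gene symbol out of 25655 genes. All 9 were found and each had a mean over 10 TPM, transcript abundance scaled for gene length and library size, across the libraries, as did 6523 genes overall. RNA-Seq had been done on SiglecF lo and SiglecF hi neutrophils sorted as CD45.2+CD11b+Ly6G+ cells on day 3 after MI/R from WT and *Cd300a-/-* mice, with SiglecF- and SiglecF+ as the labels' names for SiglecF lo and SiglecF hi. WT mice were C57BL/6J, and *Cd300a-/-* mice carried a whole-body loss of the inhibitory receptor CD300a on the C57BL/6 background. The mice were males of 8 to 12 weeks, and the left anterior descending artery had been occluded for 60 minutes in both genotypes. Each of the 4 groups was 1 library from a pool of 8 hearts, so no difference had a replicate check and no P value between groups was computed. The libraries held 9631901 (WT) and 10988619 counts (*Cd300a-/-*) for SiglecF lo and 19278243 (WT) and 17632989 counts (*Cd300a-/-*) for SiglecF hi neutrophils. The 95% intervals given here come from these counts and cover counting error only, not the variation between pools of mice.

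Chemoattractant receptors are G protein–coupled receptors that steer neutrophils along gradients of chemokines, formyl peptides, complement C5a or leukotriene B4 from the bone marrow into injured tissue. CXCR2 promotes release from the marrow and CXCR4 holds neutrophils there, and as neutrophils age in the circulation the surface level of CXCR4 rises while that of CXCR2 falls. In the infarcted heart neutrophils arrive early and clear debris, and the receptors they carry set the signals to which they can respond.

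The labels were checked first. *Cd300a* had 127 TPM in WT SiglecF lo and 163 TPM in WT SiglecF hi neutrophils, against 1.06 TPM (28 counts) and 0.740 TPM (27 counts) in the *Cd300a-/-* libraries of the same subsets. *Siglecf* had 11.3 TPM in WT SiglecF lo and 15.3 TPM in *Cd300a-/-* SiglecF lo neutrophils, against 354 TPM and 405 TPM in the SiglecF hi libraries. Both genes thus followed the labels. All 9 neutrophil markers were detected in every library, and their summed level was 158393 (WT) and 208614 TPM (*Cd300a-/-*) in SiglecF lo and 30206 (WT) and 36146 TPM (*Cd300a-/-*) in SiglecF hi neutrophils. *S100a9*, a calcium-binding protein of the neutrophil cytosol, was the most abundant marker in each of them. *Ly6g*, which encodes the sorted antigen, had 330.4 (WT) and 889 TPM (*Cd300a-/-*) in SiglecF lo and 11.1 (WT) and 41.9 TPM (*Cd300a-/-*) in SiglecF hi neutrophils.

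Markers of other cells were also measured. All 13 monocyte and macrophage markers were detected in every library, with a summed level of 4692 (WT) and 4212 TPM (*Cd300a-/-*) in SiglecF lo and 10035 (WT) and 8655 TPM (*Cd300a-/-*) in SiglecF hi neutrophils, led by *C1qb* except in *Cd300a-/-* SiglecF lo, where *C1qa* led. Between subsets, 10 of the 13 were past a log2 ratio of 0.5 on the SiglecF hi side in WT and 12 of 13 in *Cd300a-/-*, where 51.9% and 56.6% of all genes were, and *Ly6c2* was past it on the SiglecF lo side in both. Relative to the median of all genes, 9 were past it on the SiglecF hi side in WT and 6 in *Cd300a-/-*, where 19.3% and 21.2% of all genes were. The 6 fibroblast markers summed to 869 (WT) and 812 TPM (*Cd300a-/-*) in SiglecF lo and 1854 (WT) and 1300 TPM (*Cd300a-/-*) in SiglecF hi neutrophils, with *Dcn* the most abundant, and the 7 endothelial markers, led by *Pecam1*, summed to 161, 59.1, 86.6 and 114 TPM in the same order. Of the 9 eosinophil markers, the defining genes *Epx* and *Gata1* had 0 counts in every library, and *Ear2* with 85.9 to 171 TPM made up nearly all of the sum. Of the 6 mast cell and basophil markers, 5 had 0 counts in every library, with *Kit* detected (13.2 TPM in *Cd300a-/-* SiglecF lo and 1.15 to 1.5 TPM in the other libraries). T and NK cell, B cell and dendritic cell markers summed to at most 10.6, 14.2 and 15.3 TPM in any library, and cardiomyocyte markers to at most 62.6 TPM. Receptors such as *Ccr1*, *Ccr2*, *C5ar1* and *Cxcr4* are known to be expressed by monocytes and macrophages as well. In bulk libraries, fewer cells of a type and less RNA per cell cannot be told apart, and the part of other cells in the receptor results below was not tested.

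The levels of the receptors spread over more than an order of magnitude (the plot of TPM per receptor and library). *Cxcr4*, the receptor for CXCL12 (chr1:128515936-128520030, − strand, GRCm39, ENSMUSG00000045382), had 1521 (WT) and 1206 TPM (*Cd300a-/-*) in SiglecF lo and 1641 (WT) and 1801 TPM (*Cd300a-/-*) in SiglecF hi neutrophils. It was the receptor of the set with the highest TPM in both SiglecF lo libraries, and ranked 68th to 108th among the 6523 genes. *Ccrl2*, an atypical receptor that binds chemerin without the usual G protein signal (chr9:110883554-110886587, − strand, ENSMUSG00000043953), had 751 (WT) and 476 TPM (*Cd300a-/-*) in SiglecF lo and 1646 (WT) and 1948 TPM (*Cd300a-/-*) in SiglecF hi neutrophils, and so stood at or above *Cxcr4* in the SiglecF hi libraries and well below it in the SiglecF lo libraries. *Ccr2*, the CCL2 receptor that is typical of inflammatory monocytes (chr9:123901987-123913594, + strand, ENSMUSG00000049103), was the lowest of the set in every library, with 65.2 (WT) and 50.6 TPM (*Cd300a-/-*) in SiglecF lo and 65.2 (WT) and 53.2 TPM (*Cd300a-/-*) in SiglecF hi neutrophils. Its counts ranged from 1939 (95% Poisson interval 1854 to 2027) to 3865 (3744 to 3989), so counting error was small even here.

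**Figure D1:**
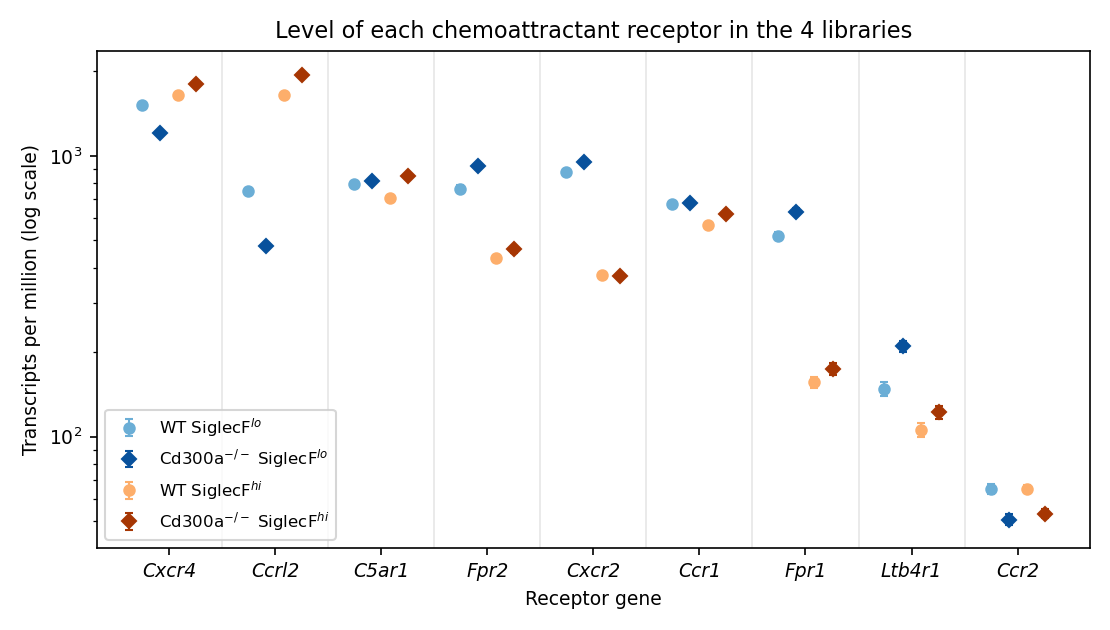
TPM (log axis) of the 9 receptors in the 4 libraries, with bars for the 95% Poisson interval of the count where it exceeds the symbol, and genes ordered by mean TPM. *Cxcr4* and *Ccrl2* lie above every other receptor in the SiglecF hi libraries, whereas *Fpr1* and *Cxcr2* are separated by subset and *Ccr2* stays below 100 TPM.

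The chemokine receptor *Cxcr2* (chr1:74193148-74200405, + strand, ENSMUSG00000026180), through which CXCL1 and CXCL2 draw neutrophils into tissue, had 876 (WT) and 954 TPM (*Cd300a-/-*) in SiglecF lo and 376 (WT) and 372 TPM (*Cd300a-/-*) in SiglecF hi neutrophils. Both SiglecF lo libraries were above both SiglecF hi libraries, and the 2 SiglecF hi libraries did not differ beyond counting error (log2 ratio of WT to *Cd300a-/-*, 0.01, 95% interval −0.03 to 0.05). *Ccr1* (chr9:123762161-123768729, − strand, ENSMUSG00000025804), a receptor for CCL3 and related chemokines, varied little, with 673 (WT) and 677 TPM (*Cd300a-/-*) in SiglecF lo and 569 (WT) and 623 TPM (*Cd300a-/-*) in SiglecF hi neutrophils, and the SiglecF lo libraries were alike within counting error. *C5ar1* (chr7:15980668-15993465, − strand, ENSMUSG00000049130), the C5a receptor, had 792 (WT) and 816 TPM (*Cd300a-/-*) in SiglecF lo and 707 (WT) and 849 TPM (*Cd300a-/-*) in SiglecF hi neutrophils. On TPM both *Cd300a-/-* libraries lay above both WT libraries, and the highest and the lowest were both SiglecF hi.

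The formyl peptide receptors sense bacterial and mitochondrial peptides, and FPR2 also binds annexin A1. *Fpr1* (chr17:18096733-18104202, − strand, ENSMUSG00000045551) had 519 (WT) and 631 TPM (*Cd300a-/-*) in SiglecF lo and 156 (WT) and 174 TPM (*Cd300a-/-*) in SiglecF hi neutrophils. *Fpr2* (chr17:18108086-18114214, + strand, ENSMUSG00000052270) had 764 (WT) and 919 TPM (*Cd300a-/-*) in SiglecF lo and 432 (WT) and 464 TPM (*Cd300a-/-*) in SiglecF hi neutrophils. In both genes the order was the same, *Cd300a-/-* SiglecF lo first, then WT SiglecF lo, *Cd300a-/-* SiglecF hi and WT SiglecF hi, and each step exceeded counting error. *Ltb4r1* (chr14:56003419-56005951, + strand, ENSMUSG00000046908), the high-affinity leukotriene B4 receptor, had the same order at a lower level, with 148 TPM (WT, 1059 counts) and 209.6 TPM (*Cd300a-/-*, 1656 counts) in SiglecF lo and 106 TPM (WT, 1292 counts) and 122 TPM (*Cd300a-/-*, 1336 counts) in SiglecF hi neutrophils.

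To ask how the loss of CD300a bore on the receptors of SiglecF lo neutrophils, the *Cd300a-/-* library was set against the WT library. Differences are log2 ratios of TPM with 1 added to each value, and a gene was called where the ratio passed 0.5 in either direction. *Ccrl2* was lower in *Cd300a-/-* SiglecF lo neutrophils by 1.58-fold (log2 ratio −0.66, 95% interval −0.70 to −0.61), and *Ltb4r1* was higher by 1.41-fold (0.50, 0.39 to 0.61), a value that lay at the threshold itself. Thus 1 of 9 receptors was called higher and 1 of 9 lower, where 16.4% and 19.9% of all genes were called in those directions, which gives the set no count apart from the background. Short of the threshold, *Fpr1* (0.28, 0.22 to 0.34), *Fpr2* (0.27, 0.21 to 0.32) and *Cxcr2* (0.12, 0.09 to 0.16) had ratios above 0, and *Ccr2* (−0.36, −0.44 to −0.27) and *Cxcr4* (−0.33, −0.37 to −0.30) had ratios below 0. *C5ar1* (0.04, 0.01 to 0.08) and *Ccr1* (0.01, −0.03 to 0.05) were nearly level. The median over the 9 receptors was 0.04, beside −0.02 over all genes. In the same pair of libraries all 9 neutrophil markers had ratios above 0, 5 of them past 0.5 (*Ly6g*, 1.43), and 3 of 13 monocyte and macrophage markers were past −0.5 (*Fcgr1* −1.22, *Trem2* −1.0 and *Ms4a7* −0.69) with *Mrc1* past 0.5 (0.66). Of the endothelial markers, all 5 that were over the limit were below 0 and 4 were past −0.5 (*Pecam1* −1.82, median −1.27), and *Ear2* (−0.98) and the cardiomyocyte marker *Actc1* (−0.86) were past −0.5 too. Under the limit, *Kit* went from 31 counts in WT to 394 in *Cd300a-/-*, the dendritic cell marker *Cd209a* from 80 to 0 and the cardiomyocyte marker *Tnni3* from 54 to 6. The part of these markers in the receptor differences was not tested.

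In SiglecF hi neutrophils no receptor was past the threshold by genotype, 0 of 9 in each direction, where 3.31% of all genes were called higher and 3.46% lower. The ratios ran from −0.29 for *Ccr2* (95% interval −0.36 to −0.22) to 0.26 for *C5ar1* (0.23 to 0.30), with 7 receptors above 0 and a median of 0.13, beside 0.04 over all genes. *Ccrl2* (0.24, 0.22 to 0.26), *Ltb4r1* (0.21, 0.10 to 0.32), *Fpr1* (0.16, 0.06 to 0.25), *Cxcr4* (0.13, 0.11 to 0.16), *Ccr1* (0.13, 0.10 to 0.17) and *Fpr2* (0.10, 0.05 to 0.16) were above 0 beyond counting error. *Ccr2* was thus lower in the *Cd300a-/-* library of both subsets, by 1.28-fold in SiglecF lo and 1.22-fold in SiglecF hi neutrophils. All 9 neutrophil markers were again above 0 (3 past 0.5), and 12 of 13 monocyte and macrophage markers were below 0 with none past the threshold. Among the other cells, the fibroblast markers *Col1a1* (−0.64), *Col1a2* (−0.69) and *Col3a1* (−0.65) were past −0.5, and the endothelial markers *Tie1* (0.59) and *Vwf* (0.58) and the cardiomyocyte marker *Myl2* (0.71) were past 0.5. The part of all these markers in the receptor values was not tested.

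When the genotype ratios of the subsets were set against each other, *Ccrl2* and *Cxcr4* went in opposite directions beyond counting error. The ratio in SiglecF lo minus that in SiglecF hi was −0.90 for *Ccrl2* (95% interval −0.95 to −0.85) and −0.47 for *Cxcr4* (−0.51 to −0.43). *Ltb4r1* had the highest positive difference, 0.29 (0.14 to 0.45), and *C5ar1* stood at −0.22 (−0.27 to −0.17). The difference for *Ccr2*, −0.07 (−0.18 to 0.04), was within counting error, and the other 4 receptors lay between −0.12 and 0.16. With 1 library per group, an interaction could not be tested.

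The subsets were then compared within each genotype. SiglecF hi neutrophils had less *Fpr1* than SiglecF lo neutrophils, by 3.31-fold in WT (log2 ratio −1.73, 95% interval −1.81 to −1.65) and 3.61-fold in *Cd300a-/-* (−1.85, −1.93 to −1.77). *Cxcr2* was lower by 2.33-fold in WT (−1.22, −1.26 to −1.18) and 2.56-fold in *Cd300a-/-* (−1.36, −1.39 to −1.32), and *Fpr2* by 1.77-fold (−0.82, −0.88 to −0.76) and 1.98-fold (−0.98, −1.04 to −0.93). *Ltb4r1* was at −0.48 in WT (−0.60 to −0.37), short of the threshold, and −0.78 in *Cd300a-/-* (−0.88 to −0.67). Conversely, *Ccrl2* was higher in SiglecF hi neutrophils by 2.19-fold in WT (1.13, 1.10 to 1.16) and 4.08-fold in *Cd300a-/-* (2.03, 1.99 to 2.07). *Cxcr4* was at 0.11 in WT (0.08 to 0.14), below 0 after the centring given below, and 0.58 in *Cd300a-/-* (0.55 to 0.61). The remaining receptors, *Ccr1*, *Ccr2* and *C5ar1*, lay between −0.24 and 0.07 in both genotypes, *Ccr2* and *C5ar1* in *Cd300a-/-* at 0.07 and 0.06 but below 0 after the centring given below. The genotype and subset comparisons share libraries and are not independent of one another.

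In WT, 3 of 9 receptors were called lower in SiglecF hi neutrophils (*Fpr1*, *Cxcr2* and *Fpr2*) and 1 higher (*Ccrl2*), where 7.47% of all genes were called lower and 51.9% higher. In *Cd300a-/-*, 4 were called lower, with *Ltb4r1* added, and 2 higher (*Ccrl2* and *Cxcr4*), where 7.97% of all genes were called lower and 56.6% higher. The lopsided background goes with a median over all genes of 0.53 in WT and 0.61 in *Cd300a-/-*, in libraries where the 9 neutrophil markers took 15.8% and 20.9% of TPM in the SiglecF lo subset and 3.02% and 3.61% in the SiglecF hi subset. Relative to that median, 7 of 9 receptors were past −0.5 and 1 of 9 past 0.5 in each genotype, where 20.9% of genes were lower and 19.3% higher in WT and 23.6% lower and 21.2% higher in *Cd300a-/-*. The centred ratios in WT were −2.25 for *Fpr1*, −1.75 for *Cxcr2*, −1.35 for *Fpr2*, −1.01 for *Ltb4r1*, −0.77 for *Ccr1*, −0.69 for *C5ar1*, −0.53 for *Ccr2*, −0.42 for *Cxcr4* and 0.60 for *Ccrl2*. In *Cd300a-/-*, they were −2.46 for *Fpr1*, −1.97 for *Cxcr2*, −1.60 for *Fpr2*, −1.39 for *Ltb4r1*, −0.73 for *Ccr1*, −0.56 for *C5ar1*, −0.54 for *Ccr2*, −0.04 for *Cxcr4* and 1.42 for *Ccrl2*. *Cxcr4* in *Cd300a-/-* was therefore higher on TPM and level with the median gene after centring, and its direction turned to slightly negative with TMM scaling (−0.0033) and with DESeq2 size factors (−0.09). In WT it turned as well, from 0.11 on TPM to −0.42 after centring, −0.43 with TMM scaling and −0.50 with DESeq2 size factors. The directions of *Fpr1*, *Cxcr2*, *Fpr2*, *Ltb4r1* and *Ccrl2* were the same on each scale used. The summed neutrophil, monocyte and macrophage, fibroblast and endothelial markers given above differ between these libraries too, and their part in the subset differences was not tested.

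**Figure D2:**
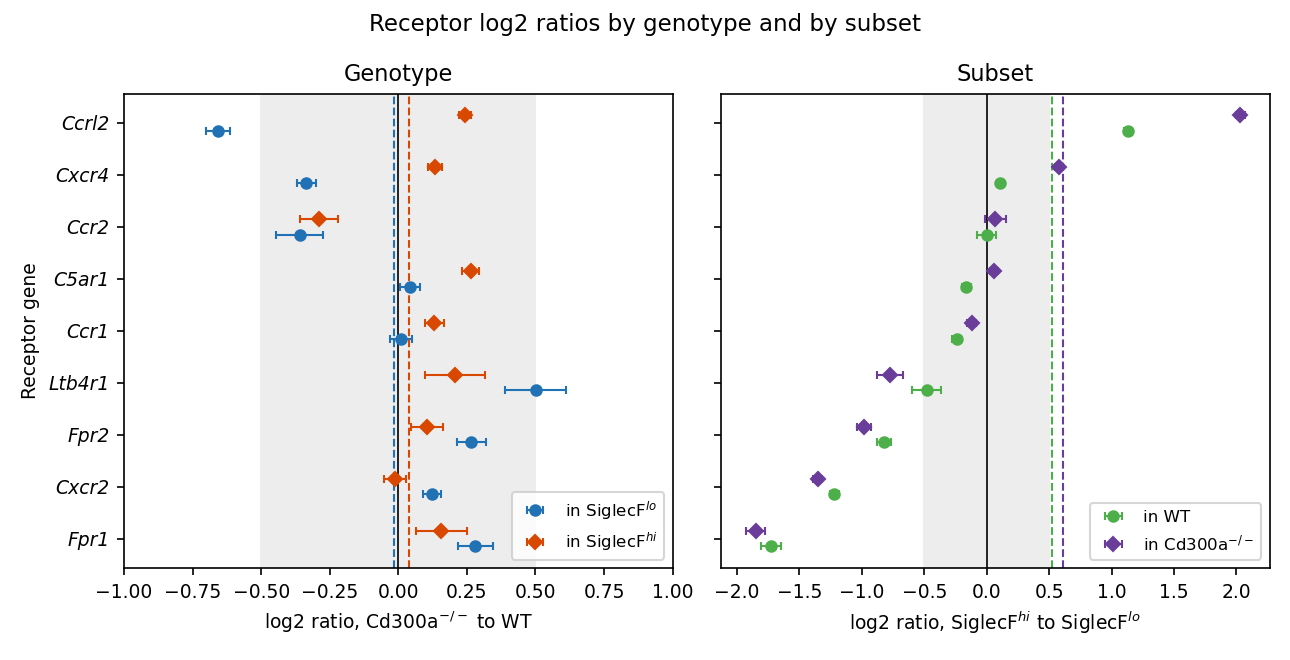
Log2 ratios of TPM for the 9 receptors, by genotype (*Cd300a-/-* to WT, left) and by subset (SiglecF hi to SiglecF lo, right), 1 point per comparison with its 95% counting interval, with the band within the threshold of 0.5 in grey and the median of all genes as dashed lines. By genotype, *Ccrl2* and *Cxcr4* lie on opposite sides of 0 in the subsets, and by subset *Fpr1*, *Cxcr2* and *Fpr2* lie lowest and *Ccrl2* highest, with the other receptors below the median of all genes on this scale.

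The balance of *Cxcr2* and *Cxcr4*, commonly used to follow neutrophil ageing, was read within each library and so did not depend on scaling between libraries. The log2 ratio of *Cxcr2* to *Cxcr4* TPM in SiglecF lo neutrophils was −0.80 for WT (95% interval −0.83 to −0.76) and −0.34 for *Cd300a-/-* (−0.37 to −0.30), and in SiglecF hi neutrophils −2.13 for WT (−2.16 to −2.09) and −2.27 for *Cd300a-/-* (−2.31 to −2.24). There were thus 0.576 and 0.792 *Cxcr2* transcripts per *Cxcr4* transcript in the SiglecF lo libraries and 0.229 and 0.207 in the SiglecF hi libraries, so that *Cd300a-/-* stood above WT in the SiglecF lo subset and below it in the SiglecF hi subset. Without length normalization the ratios were shifted upward by a constant, which set *Cxcr2* above *Cxcr4* in *Cd300a-/-* SiglecF lo but kept the order of the libraries. The ratio of *Fpr2* to *Fpr1* TPM was 1.47 (WT) and 1.46 (*Cd300a-/-*) in SiglecF lo and 2.76 (WT) and 2.66 (*Cd300a-/-*) in SiglecF hi neutrophils, differing by subset more than by genotype.

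The receptors together summed to 6109 (WT) and 5940 TPM (*Cd300a-/-*) in SiglecF lo and 5698 (WT) and 6408 TPM (*Cd300a-/-*) in SiglecF hi neutrophils, so on TPM the total was similar while its makeup was not. The sums were not centred on the median of all genes, a step after which 7 of 9 receptors were past −0.5 by subset in each genotype. *Ccrl2* took 12.3% (WT) and 8.02% (*Cd300a-/-*) of the sum in SiglecF lo and 28.9% (WT) and 30.4% (*Cd300a-/-*) in SiglecF hi neutrophils. *Cxcr4* took 24.9%, 20.3%, 28.8% and 28.1% in the same order. The share of *Cxcr2* was 14.3% and 16.1% in WT and *Cd300a-/-* SiglecF lo neutrophils against 6.59% and 5.81% in SiglecF hi neutrophils, and that of *Fpr1* was 8.50% and 10.6% against 2.74% and 2.72%. *C5ar1* stayed between 12.4% and 13.7%, and *Ccr2* between 0.830% and 1.14%.

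Position was examined next, since several receptors are clustered (the map of both clusters). On chromosome 9, 9 genes lie from *Ccr9* to *Ccr2*. *Ccr1* was the only one of them over 100 TPM, and *Ccr2* lay between 10 and 100 TPM. The 7 other genes of this stretch were at or below 5.49 TPM in each library, among them the eosinophil receptor *Ccr3*. *Ccr1* and *Ccr2* lie 133258 bases apart, whereas *Ccrl2* lies 12875574 bases from *Ccr1* and outside the cluster. *Fpr1* and *Fpr2* on chromosome 17 are read away from each other across 3884 bases. *Fpr3* (chr17:18108114-18191939, + strand) overlaps *Fpr2* over 6101 bases on the same strand, so the split of reads between them is uncertain. It had 12 (WT) and 108 counts (*Cd300a-/-*) in SiglecF lo and 39 (WT) and 29 counts (*Cd300a-/-*) in SiglecF hi neutrophils, against at least 4727 for *Fpr2*, and the *Cd300a-/-* to WT ratio in SiglecF lo neutrophils was 2.50 (95% interval 1.91 to 3.08). No other receptor of the set was overlapped by a gene of the files. *Ltb4r2*, next to *Ltb4r1*, had 0 to 14 counts, and *Cxcr1*, next to *Cxcr2*, had 58.3 (WT) and 62.4 TPM (*Cd300a-/-*) in SiglecF lo and 14.1 (WT) and 10.4 TPM (*Cd300a-/-*) in SiglecF hi neutrophils, a subset ratio of −1.98 in WT (−2.21 to −1.74) and −2.47 in *Cd300a-/-* (−2.74 to −2.21). *C5ar2*, next to *C5ar1*, was higher in SiglecF hi neutrophils (0.83 in WT and 0.87 in *Cd300a-/-*), by 0.30 and 0.25 after centring.

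**Figure D3:**
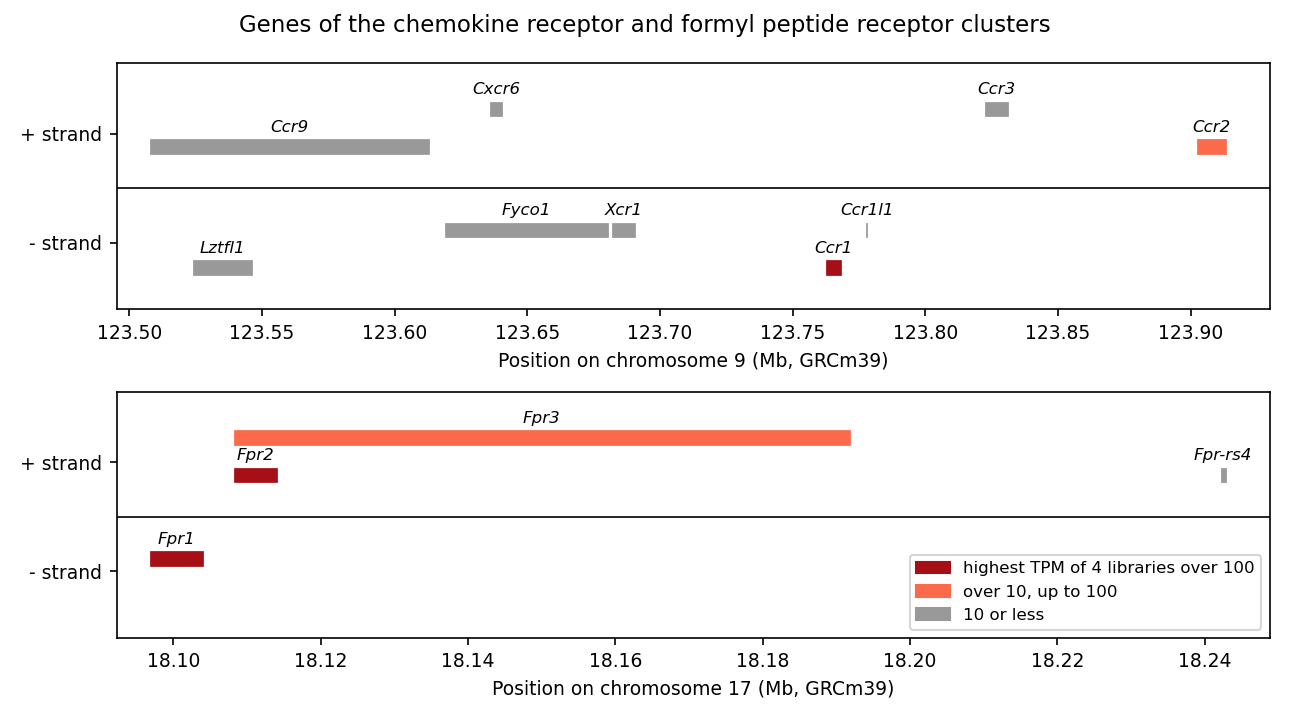
Genes from *Ccr9* to *Ccr2* in the chemokine receptor cluster on chromosome 9 (top) and the formyl peptide receptor cluster on chromosome 17 (bottom) by position in Mb of GRCm39 and by strand, colored by the highest TPM of the 4 libraries. *Ccr1*, *Fpr1* and *Fpr2* exceed 100 TPM, *Ccr2* and *Fpr3* lie between 10 and 100 TPM, and *Fpr3* spans *Fpr2*.

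Of 34 other chemoattractant receptors, 12 had a mean over 10 TPM. By genotype, none of the 12 was called higher and 2 lower in SiglecF lo neutrophils, the fractalkine receptor *Cx3cr1* (−0.75, 95% interval −0.89 to −0.60) and the chemerin receptor *Cmklr1* (−0.52, −0.72 to −0.32), and 1 was called higher in SiglecF hi neutrophils, the sphingosine-1-phosphate receptor *S1pr4* (0.82, 0.49 to 1.14), with none lower. *S1pr4* was under 10 TPM in both of those libraries (3.96 and 7.74 TPM on 83 and 145 counts) and entered through its SiglecF lo values alone, so this call and its lower calls by subset below carry little weight. Over all genes 16.4% were called higher and 19.9% lower in SiglecF lo, and 3.31% and 3.46% in SiglecF hi neutrophils. The medians were 0.16 and −0.03. By subset, 6 were called higher and 2 lower in WT (all genes, 51.9% and 7.47%), and 7 higher and 2 lower in *Cd300a-/-* (56.6% and 7.97%), with medians of 0.49 and 0.78 beside 0.53 and 0.61 over all genes. *S1pr4* is 1 of the 2 lower receptors in each genotype, and without it only *Cxcr1* is left. *Ackr3*, counted among the higher receptors in both genotypes, was under 10 TPM in SiglecF lo neutrophils (6.51 TPM in WT and 8.33 TPM in *Cd300a-/-*). It entered through its SiglecF hi values alone (11.8 and 14.1 TPM), so its higher calls carry little weight too. After centring, 1 was past 0.5 in each genotype, the C3a receptor *C3ar1* (0.85 in WT and 0.69 in *Cd300a-/-*), which had 80.7 (WT) and 68.3 TPM (*Cd300a-/-*) in SiglecF lo and 210.7 (WT) and 170.1 TPM (*Cd300a-/-*) in SiglecF hi neutrophils. Past −0.5 after centring were 3 of the 12 in WT and 4 in *Cd300a-/-*, *Cxcr1* and the discounted *S1pr4* among them in both, where 19.3% of all genes were past 0.5 and 20.9% past −0.5 in WT, and 21.2% and 23.6% in *Cd300a-/-*. *Ptafr*, the receptor for platelet-activating factor, was the most abundant of the 12, with 308 (WT) and 408 TPM (*Cd300a-/-*) in SiglecF lo and 382 (WT) and 439 TPM (*Cd300a-/-*) in SiglecF hi neutrophils. Since *Cx3cr1*, *C3ar1* and *Cmklr1* are also borne by monocytes and macrophages, whose markers differed between these libraries, the part of such cells was not tested here either.

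Several ligands of the receptors were themselves abundant in the sorted cells. Of 19 ligand genes or enzymes of leukotriene B4 synthesis, 17 had a mean over 10 TPM. In SiglecF lo neutrophils, 8 of the 17 were called lower and 2 higher in *Cd300a-/-* (median, −0.40), where 19.9% of all genes were called lower and 16.4% higher. The 4 ligands of CXCR2 over the limit all lay below 0, with *Cxcl5* at −2.47 (95% interval −2.89 to −2.05), *Cxcl1* at −1.23 (−1.35 to −1.10), *Cxcl3* at −0.61 (−0.72 to −0.50) and *Cxcl2* at −0.40 (−0.43 to −0.38). The ligands of CCR1 and CCR2 all lay below 0 too, 4 of 7 past the threshold, including *Ccl7* (−0.89) and *Ccl3* (−0.58, −0.64 to −0.52). *Rarres2*, which encodes chemerin, the ligand of CCRL2, was at −1.94 (−2.49 to −1.39) on 99 and 25 counts. Among the genes called lower, *Rarres2* (5.30 TPM), *Cxcl5* (4.03 TPM) and *Ccl5* (8.29 TPM) were under 10 TPM in the *Cd300a-/-* library. Conversely, *Anxa1*, encoding the FPR2 ligand annexin A1, had 826 TPM with CD300a and 1452 TPM without it (0.81, 0.78 to 0.85), and *Alox5ap*, whose product presents arachidonic acid to 5-lipoxygenase, had 2286 and 3490 TPM (0.61, 0.58 to 0.64). In SiglecF hi neutrophils, 3 of the 17 were called lower (*Cxcl1*, *Cxcl5* and *Rarres2*) and 1 higher (*Ccl5*), with a median of −0.02 and with 3.46% and 3.31% of all genes called in those directions. As given above, some macrophage and endothelial markers passed the threshold between the SiglecF lo libraries, and some fibroblast and endothelial markers between the SiglecF hi libraries. The part of such cells in the ligand values was not tested.

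By subset, 6 of the 17 ligand genes were called higher and 3 lower in WT, where 51.9% of all genes were called higher and 7.47% lower, and 12 higher and 3 lower in *Cd300a-/-*, where these were 56.6% and 7.97%. After centring, 1 was higher and 4 lower in WT (all genes, 19.3% and 20.9%), and 7 higher and 5 lower in *Cd300a-/-* (21.2% and 23.6%). *Cxcl12* is among the higher genes in WT (0.62) and in *Cd300a-/-* (1.19, and 0.58 after centring). It was under 10 TPM in both SiglecF lo libraries (8.45 and 6.43 TPM) and entered through its SiglecF hi values alone (13.5 and 15.9 TPM). These calls of *Cxcl12* therefore carry little weight. *Cxcl5*, *Rarres2* and *Ccl5* were also among the 7 higher genes after centring in *Cd300a-/-*. In the *Cd300a-/-* SiglecF lo library they were under 10 TPM (4.03, 5.30 and 8.29 TPM on 36, 25 and 25 counts). Only their SiglecF hi values (19.9, 26.0 and 23.0 TPM) passed the limit in this pair, so these calls carry little weight too. *Ccl3* had 1451 (WT) and 970 TPM (*Cd300a-/-*) in SiglecF lo and 3561 (WT) and 3988 TPM (*Cd300a-/-*) in SiglecF hi neutrophils, and was past 0.5 after centring in both genotypes (0.77 and 1.43). *Cxcl2* had 2801, 2121, 4829 and 5222 TPM in the same order, the most abundant of the ligands in the SiglecF hi libraries. *Ccl6*, *Anxa1* and *Alox5ap* were lower in SiglecF hi neutrophils in both genotypes, at −1.24, −0.95 and −0.73 in WT. *Hc*, which encodes complement C5, had at most 6 counts in any library, and *Cxcl12*, the ligand of CXCR4, 6.43 to 15.9 TPM. The markers of other cells differ by subset as well, and their part in the ligand values and in those of the lists below was not tested.

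Downstream of these receptors, Gi proteins release beta-gamma subunits that activate PI3K-gamma, Rac and the cytoskeleton. Of 25 genes of this list, 24 had a mean over 10 TPM. In SiglecF lo neutrophils, 3 were called higher in *Cd300a-/-*, *Pik3r6* (0.83, 95% interval 0.54 to 1.13), *Pik3r5* (0.57, 0.45 to 0.69) and *Mapk14* (0.57, 0.48 to 0.66), and *Gng5* was called lower (−0.57, −0.65 to −0.49), where 16.4% of all genes were called higher and 19.9% lower. *Pik3r5* and *Pik3r6* encode the regulatory subunits of PI3K-gamma, and *Pik3cg*, its catalytic subunit, was at −0.27 (−0.39 to −0.15). *Pik3r6* was under 10 TPM in the WT library (6.13 TPM on 102 counts, against 11.7 TPM in *Cd300a-/-*), so its call carries little weight. In SiglecF hi neutrophils 0 of 24 were called in either direction (all genes, 3.31% higher and 3.46% lower). The medians were 0.19 and 0.06. By subset, 5 were called higher and 1 lower in WT (all genes, 51.9% and 7.47%), and 3 higher and 2 lower in *Cd300a-/-* (56.6% and 7.97%). Relative to the median gene, 1 was higher and 10 lower in WT (19.3% and 20.9%), and 0 higher and 13 lower in *Cd300a-/-* (21.2% and 23.6%). The 1 higher in WT was *Pik3r6* (0.51), at 6.13 TPM in WT SiglecF lo neutrophils, so this call carries little weight too. *Gnai2*, encoding the main Gi alpha subunit of leukocytes, had 1284 to 1458 TPM in the 4 libraries. Relative to the median gene it was among the lower genes by subset, at −0.63 in WT and −0.80 in *Cd300a-/-*.

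Receptors are switched off by G protein–coupled receptor kinases, arrestins and RGS proteins. Of 15 genes of a list of these and of proteins of receptor trafficking, 13 had a mean over 10 TPM, and 2 were called higher in *Cd300a-/-* SiglecF lo neutrophils, the kinase gene *Grk6* (0.68, 95% interval 0.57 to 0.79) and the beta-arrestin gene *Arrb1* (0.65, 0.53 to 0.78), while *Grk5* was called lower (−0.55, −0.70 to −0.39), beside 16.4% and 19.9% of all genes. None was called in SiglecF hi neutrophils, beside 3.31% and 3.46%. The medians were −0.10 and 0.04. By subset, 4 were called higher and 2 lower in WT (all genes, 51.9% and 7.47%), and 3 higher and 1 lower in *Cd300a-/-* (56.6% and 7.97%). After centring 5 were past −0.5 in WT and 6 in *Cd300a-/-* (all genes, 20.9% and 23.6%), and 3 were past 0.5 in each genotype (19.3% and 21.2%), namely *Rgs10* (1.10 in WT and 0.86 in *Cd300a-/-*), *Rgs1* (0.82 and 0.81) and the ubiquitin ligase gene *Itch* (0.67 and 0.86), which encodes a protein that sorts CXCR4 for degradation. *Rgs1* had 57.9 (WT) and 53.1 TPM (*Cd300a-/-*) in SiglecF lo and 148 (WT) and 144 TPM (*Cd300a-/-*) in SiglecF hi neutrophils.

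Genes used to follow neutrophil ageing were read beside the receptors. Of 14 genes, 12 had a mean over 10 TPM. By subset, 4 of the 12 were called higher and 1 lower in WT (all genes, 51.9% and 7.47%). In *Cd300a-/-*, 4 were called higher and 2 lower (56.6% and 7.97%). After centring, 3 were past 0.5 and 4 past −0.5 in WT (19.3% and 20.9%). In *Cd300a-/-* these were 4 and 6 (21.2% and 23.6%). The centred medians were −0.28 in WT and −0.46 in *Cd300a-/-*. *Icam1*, encoding an adhesion molecule that is high on aged neutrophils, had 181 (WT) and 205 TPM (*Cd300a-/-*) in SiglecF lo and 716 (WT) and 955 TPM (*Cd300a-/-*) in SiglecF hi neutrophils, and *Itgax* 77.5, 87.2, 171 and 213 TPM in the same order. These differences by subset, 1.98 for *Icam1* (95% interval 1.92 to 2.04) and 1.13 for *Itgax* (1.06 to 1.21) in WT, kept their direction after centring, whereas *Cd24a* (0.05 in WT) did not (−0.48). *Itgax* and *Icam1* are expressed by macrophages as well. By genotype in SiglecF lo neutrophils, *Per2* (0.74, 0.56 to 0.92) and *Itgam* (0.58, 0.55 to 0.62) were called higher and *Dbp* lower (−0.57, −0.86 to −0.28), where 16.4% of all genes were called higher and 19.9% lower, and in SiglecF hi neutrophils 0 of 12 were called, where these were 3.31% and 3.46%. The circadian gene *Arntl*, also named *Bmal1*, was under the limit with 67 to 130 counts.

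The receptors differed in how alike their profiles were over the 4 libraries. By Euclidean distance of log2 TPM, each gene centred on its own mean, the closest pair was *Ccr1* and *C5ar1* (0.16), followed by *Fpr2* and *Ltb4r1* (0.33) and *Cxcr2* and *Fpr2* (0.41). The neighbouring genes *Fpr1* and *Fpr2* were further apart (0.89), and *Ccrl2* and *Fpr1* were the farthest pair (3.43). Among all other genes, the closest to *Cxcr2* were *Taldo1*, *Selplg*, encoding the selectin ligand PSGL-1, and *Mrgpra2b* (distances, 0.03, 0.07 and 0.11). *Cxcr4* was closest to *Sugt1*, *Gpr65* and *Ndufa3* (each 0.03), and *Ccrl2* to *Jkamp*, *Tmem135* and *Tmco1* (0.08 to 0.12). *Ccr1* was closest to *Lgals9*, *Hmgn2* and *Tnfrsf1a* (0.03 to 0.04), *C5ar1* to *Eif1*, *Stx17* and *Itgb7* (0.03 to 0.08), and *Ccr2* to *Ccdc71l*, *Ankrd37* and *Lipe* (0.04 to 0.07). The closest genes to *Fpr1* were *Slc27a4*, *Abtb1* and *Hsd11b1* (0.16 to 0.17), to *Fpr2* *Mctp2*, *Ifitm2* and *Tmcc1* (0.05 to 0.07), and to *Ltb4r1* *Tbc1d23*, *Phf1* and *Khnyn* (0.07 to 0.08). Over 4 libraries a short distance describes the profile and nothing more.

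Promoter sequences were available from RefSeq (GRCm38.p6) for 9 of 9 receptors, and the 250 bases before each start site were searched on both strands, with 3 start sites for *Ccrl2*. The letters GAGGAAG (PU.1) were found before *Ltb4r1* alone, and in 10.6% of all 32851 promoters. TTNNGNAA (C/EBP) was found before 6 of 9 receptors, *Cxcr4*, *Ccr1*, *Ccr2*, *Fpr1*, *Fpr2* and *C5ar1*, and in 36.8% of all promoters. GGG and CC with any 5 bases between them (NF-kappaB) were found before *Cxcr2*, *Ccr1* and the first of the *Ccrl2* start sites, and in 45.8%. CACGTG (E-box) was found before 0 of 9, and in 6.02%, and ACGTG (HIF), which is contained in the E-box letters, before *Ccrl2* alone, and in 16.6%. The HIF letters stand before each of its 3 start sites, but those at sites 2 and 3 are the same match. A match of letters is not a binding site, and the lack of one says nothing about the factor. Shown here, 5′ to 3′ with these matches in capitals, are the 250 bases before the start sites of the receptors that differed most between the subsets, the divergent pair *Fpr1* (chr17:17883940-17884189, − strand, GRCm38.p6) and *Fpr2* (chr17:17887574-17887823, + strand), *Cxcr2* (chr1:74153744-74153993, + strand) and, going the other way, *Ccrl2* at the first of its start sites (chr9:111057519-111057768, − strand).
*Fpr1*: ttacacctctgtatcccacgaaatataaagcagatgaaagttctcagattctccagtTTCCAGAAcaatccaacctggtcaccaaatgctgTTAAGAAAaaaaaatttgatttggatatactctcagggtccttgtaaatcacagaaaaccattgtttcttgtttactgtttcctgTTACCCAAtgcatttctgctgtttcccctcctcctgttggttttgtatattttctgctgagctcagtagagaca
*Fpr2*: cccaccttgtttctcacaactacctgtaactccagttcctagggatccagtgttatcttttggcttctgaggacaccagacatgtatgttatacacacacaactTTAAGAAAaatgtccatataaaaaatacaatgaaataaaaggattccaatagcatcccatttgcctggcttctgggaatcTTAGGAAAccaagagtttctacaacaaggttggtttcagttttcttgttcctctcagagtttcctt
*Cxcr2*: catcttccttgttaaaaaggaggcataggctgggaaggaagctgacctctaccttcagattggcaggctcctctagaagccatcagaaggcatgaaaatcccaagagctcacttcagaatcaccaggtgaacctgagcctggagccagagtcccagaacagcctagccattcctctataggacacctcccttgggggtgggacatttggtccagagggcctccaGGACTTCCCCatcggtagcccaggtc
*Ccrl2*: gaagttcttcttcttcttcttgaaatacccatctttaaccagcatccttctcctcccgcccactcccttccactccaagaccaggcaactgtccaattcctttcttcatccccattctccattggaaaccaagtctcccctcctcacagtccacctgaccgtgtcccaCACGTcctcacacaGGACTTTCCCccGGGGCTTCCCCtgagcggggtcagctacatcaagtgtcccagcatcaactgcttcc
In *Fpr1* the C/EBP letters begin 193, 159 and 74 bases before the start site, and in *Fpr2* 146 and 66 bases before it. The NF-kappaB letters begin 26 bases before the *Cxcr2* start site, and 68, 56 and 55 bases before that of *Ccrl2*, where the HIF letters begin at 82 bases.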

How the data were processed

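Neutrophils of 4 groups were sequenced after poly(A) selection with a kit whose strandedness is not stated. The authors deposited, per gene, total counts, RPKM, TPM and a TMM-scaled CPM signal from CLC Genomics Workbench, and the submitters' processing notes name GRCm39. The CPM signal was not used for results. TPM was used for levels, and log2((TPM + 1) ratios) for comparisons among genes with a mean TPM over 10, called past 0.5, with 95% counting intervals by the delta method from the counts and exact Poisson intervals for single counts. The ratio script was tested on simulated data. There were no replicates, and each library's total count is given in the report. The receptors and gene lists were chosen with earlier results of these data known. Genes named are the 9 receptors, list genes, the 3 closest profiles per receptor, overlapping genes and genes of both clusters. Alternatives were the pseudocount, filters, threshold, centring, edgeR 4.0.16 TMM and DESeq2 1.42.0 size factors (R 4.3.3), RPKM, and counts without length normalization. Python 3.11.15 with pandas 2.3.3, numpy 2.4.6, scipy 1.17.1 and matplotlib 3.10.9 was used. Protein sequences were not analysed here.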

Additional observations from a re-analysis of the deposited data

Results flagged for a closer look

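The genotype ratio of *Ccrl2* had opposite signs in the subsets, below 0 in SiglecF lo and above 0 in SiglecF hi neutrophils, each beyond counting error, and the ratio in SiglecF lo minus that in SiglecF hi was −0.90. *Cxcr4* did likewise, with a difference of −0.47. These differences between subsets were not tested, since each group was 1 library.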

How the results depend on the processing

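Of the 36 receptor ratios (9 receptors in 4 comparisons), 36 kept their side of the threshold with a pseudocount of 0.1, with a mean TPM over 1 and with TPM over 10 in both libraries compared. With TMM-scaled CPM, DESeq2 size factors or centring on the median of all genes 28 of 36 did, and every change was between subsets. Under each of these scalings, receptors lower in SiglecF hi neutrophils numbered 7 in WT, in place of 3, and 7 in *Cd300a-/-*, in place of 4, and those higher in *Cd300a-/-* numbered 1 in place of 2. The change follows from the shift of the median of all genes. *Cxcr4* in *Cd300a-/-* by subset turned from 0.58 to −0.0033 with TMM, −0.089 with DESeq2 size factors and −0.035 with centring, and in WT from 0.11 to −0.43, −0.50 and −0.42. At a log2 threshold of 1, 30 of 36 ratios kept their side, with 0 receptors higher and 0 lower by genotype in SiglecF lo neutrophils, and 1 higher and 2 lower by subset in *Cd300a-/-*. The number of receptors with opposite genotype directions stayed at 2 with a pseudocount of 0.1, TMM and DESeq2 size factors, and was 3 with centring. The ratio of *Cxcr2* to *Cxcr4* did not move with RPKM. On counts without length normalization it was −0.042 for WT and 0.42 for *Cd300a-/-* SiglecF lo neutrophils, the latter turned from −0.34, and −1.37 for WT and −1.52 for *Cd300a-/-* SiglecF hi neutrophils, and the *Cxcr4* share was 20.2%, 16.8%, 22.5% and 22.1% in that order, since longer genes gather more counts. No paired analysis was possible because each group had 1 library, with a single replicate number in the labels, and for the same reason none could be left out. An additive fit of genotype and subset over the 4 libraries was not run, as its 1 residual degree of freedom would count any interaction as error. Depth did not limit the receptors, the lowest count being 1059, but it limited *Hc*, *Ltb4r2* and *Fpr3*.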
